A study of Capra hircus with 20 samples.

Results

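The comparison is between the hypothalamus of Jining grey goats at 120 and at 180 days after birth, over all miRNAs measured. It used the 10 libraries of these ages, 5 from each, of 20 libraries in the series. The other 10 libraries came from goats of 1 and 60 days and entered only the estimate of the spread and the background counts. Each library was made from total RNA of 1 hypothalamus sample, and the design text calls the 5 libraries of an age biological replicates. The labels give tissue, age and a replicate number, and no sex, batch, treatment or genotype. All goats were kept under the same conditions with free access to feed and water. The change of a miRNA is the difference between the ages in mean log2(RPM + 1), day 180 minus day 120, where RPM counts reads after every library is scaled to the same miRNA total.

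The hypothalamus drives puberty: its gonadotropin-releasing hormone (GnRH) neurons release pulses of hormone to the pituitary, which in turn acts on the gonads. Jining grey goats are a breed known for early puberty. miRNAs are short RNAs that pair through their 5′ seed with messenger RNAs and lower their stability or translation. In mice, miRNAs of the miR-200 and miR-155 families act in a switch that turns on GnRH expression, and miR-7 is abundant in neuroendocrine cells. Hypothalamic tissue also holds other neurons, oligodendrocytes, astrocytes, microglia, vessels and the ependyma of the third ventricle, next to choroid plexus and pituitary. In such bulk tissue, fewer cells of a type and less of a miRNA per cell cannot be told apart.

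Recovered depth in the 10 libraries ran from 5651132 to 8324880 miRNA reads, so 3 reads, taken as the detection floor, correspond to between 0.360 and 0.531 RPM. The floor covers counting error only, while the 95% intervals of changes given here come from the spread between libraries. The table held 683 miRNAs, of which 407 carried a known name and 276 were numbered predictions, and 414 passed the filter on low values and were tested. Depth was 7492173 ± 952695 reads on day 120 and 7178193 ± 1035218 on day 180 (SD, n = 5 each; exact permutation test, two-sided, p = 0.643). The neural miR-9-5p was the most abundant miRNA of the 10 libraries, and neuronal miR-124a was detected in all of them, at 290 to 2004 RPM. Spearman correlations between libraries were 0.953 to 0.983 within day 120, 0.919 to 0.974 within day 180 and 0.929 to 0.981 between the ages.

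No miRNA passed the threshold between day 120 and day 180. With limma and Benjamini-Hochberg adjustment at 0.05, 0 of 414 miRNAs were called (0%), in either direction, and the smallest adjusted p was 0.997. Only 3 miRNAs (0.725%) had an unadjusted p under 0.05. edgeR's quasi-likelihood test and DESeq2, run on whole reads recovered from the RPM values, also called 0, with 6 and 12 miRNAs below the same unadjusted p. In the same limma fit, 16 of 414 miRNAs (3.86%) were called between day 1 and day 60, 3 of them higher (0.725%) and 13 lower (3.14%) on day 60, and 0 (0%) between day 60 and day 120. Those intervals share libraries with each other, and the last shares the day 120 libraries with the comparison described here. Changes of more than 2-fold in either direction, without a test, numbered 108 from day 1 to day 60, 32 from day 60 to day 120 and 11 from day 120 to day 180. Whether the intervals differ in how much the miRNAs changed was not tested.

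A missing call does not show equal levels. The median standard error of a change was 0.518 on the log2 scale, and the median 95% interval reached 2.09-fold to either side of the estimate. For 56 of 414 miRNAs (13.5%) the interval lay wholly within a 2-fold change in either direction, and among the 68 miRNAs with a mean of 1000 RPM or more on day 120 or day 180 this held for 19 (27.9%). Of the 10 most abundant miRNAs it held for 4: let-7f-5p, miR-26a-5p, miR-100-5p and let-7g-5p. For the other 6 the interval went beyond 2-fold on at least 1 side. These were miR-9-5p, miR-7-5p, miR-143-3p, miR-27b-3p, let-7a-5p and let-7i-5p. As deposited, 274 of 414 miRNAs (66.2%) had a change below 0 and 140 (33.8%) above, with a median of -0.15. Scaling the libraries by median of ratios moved this median to 0.0091 and the number below 0 to 202. The share below 0 was 55.4% without day 120 replicate 2 or without day 180 replicate 1, and 76.3% without day 120 replicate 1. It was 51.6% without day 180 replicates 1 and 4, and 56.1% with miR-7-5p left out of the total. The tilt towards lower values therefore depends on the scaling and on single libraries, and changes are best read against the median of -0.15.

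**Figure D1:**
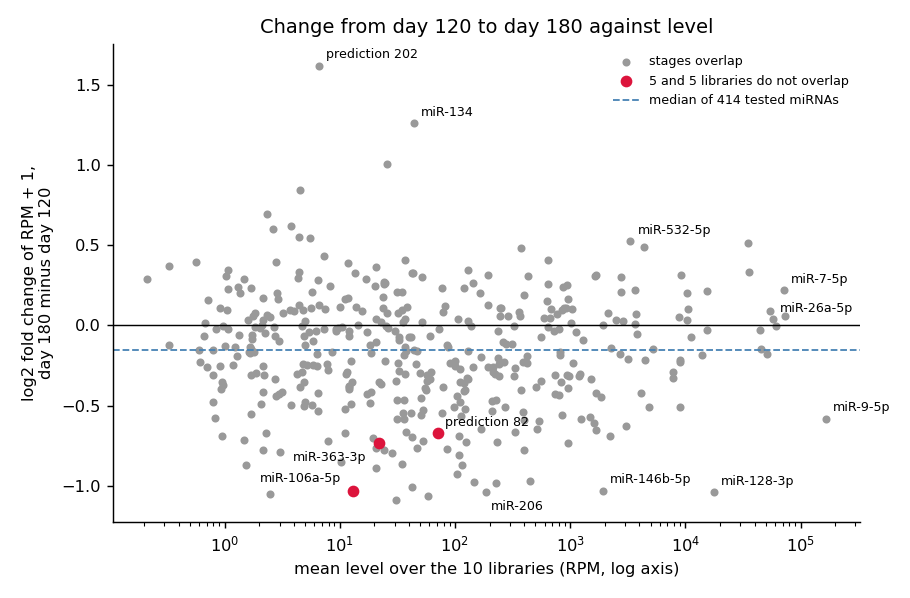
Each point is 1 of 414 tested miRNAs, with its mean level over the 10 libraries on a logarithmic x axis (RPM) and its log2 fold change of RPM + 1, day 180 minus day 120, on the y axis. The dashed line is the median of -0.15, red points are the 3 miRNAs whose 5 libraries of each age do not overlap, and most points lie between -1 and 1.

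The values of 2 of these 4 miRNAs are given first. let-7f-5p, a member of the let-7 family that accumulates as tissues mature, was at 64997, 65661, 67344, 82969 and 80153 RPM in day 120 replicates 1 to 5 and at 93266, 81472, 75773, 59523 and 68535 RPM in day 180 replicates 1 to 5. The ages overlapped over most of their range, and the change was 0.06 (95% interval -0.73 to 0.85). miR-26a-5p, a broadly expressed miRNA, was at 54648, 67794, 61281, 51008 and 47983 RPM on day 120 and at 42531, 56822, 65922, 53072 and 74954 RPM on day 180. Both the lowest and the highest of these values belonged to day 180, and the change was 0.04 (-0.61 to 0.69). miR-100-5p changed by 0.09 (-0.62 to 0.80) and let-7g-5p by -0.18 (-0.91 to 0.55). These signs are not stable: each of the 4 changes crossed 0 under at least 1 other scaling or with at least 1 library left out. The changes printed for abundant miRNAs were chosen after their values were seen.

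miR-9-5p, which promotes neuronal differentiation, made up the largest share of the reads on average. It was at 237562, 189885, 178048, 179538 and 192808 RPM on day 120 and at 86152, 188588, 89787, 142132 and 179204 RPM on day 180. Replicates 1, 3 and 4 of day 180 were below all day 120 libraries, while replicates 2 and 5 of day 180 lay within the day 120 range. The means were 195568 ± 24328 and 137173 ± 48175 RPM (SD, n = 5), a change of -0.58 (SE 0.37, 95% interval -1.34 to 0.18; limma adjusted p = 0.997). Its opposite arm, miR-9-3p, was at 2686 ± 544.2 and 1726 ± 555 RPM.

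Few miRNAs separated the ages completely. In 3 of 414 miRNAs (0.725%) every day 180 library was below every day 120 library, and in 0 (0%) every one was above. From day 1 to day 60 the same count was 3 higher (0.725%) and 10 lower (2.42%), and from day 60 to day 120 it was 1 higher (0.242%) and 3 lower (0.725%). The 3 were miR-363-3p, miR-106a-5p and prediction 82, a numbered miRNA with no known name. All 3 were below 100 RPM in every library of these ages. The count depends on the scaling: median-of-ratios scaling gave 3 lower, miR-363-3p, miR-106a-5p and the abundant miR-9-3p, and 1 higher, miR-1307-5p, while quantile scaling gave 0 in either direction.

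miR-363-3p, of the miR-25 and miR-92 seed family, was at 27.6, 30.6, 27.7, 27.03 and 24.7 RPM on day 120 and at 13.8, 19.3, 20.9, 13.7 and 14.4 RPM on day 180. The day 120 values lay close together and the highest day 180 value stood below the lowest of them. These levels rest on 169 to 255 reads per library on day 120 and 96 to 135 on day 180. The mean was 27.5 ± 2.12 against 16.4 ± 3.42 RPM (SD, n = 5), a change of -0.73 (SE 0.42, 95% interval -1.59 to 0.13; limma unadjusted p = 0.0921, adjusted p = 0.997). Because limma takes the spread from all 4 ages, a miRNA that varied more on day 1 or day 60 gets a larger standard error than its 10 libraries alone would give.

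miR-106a-5p, of the miR-17 seed family that acts in proliferating progenitor cells, was at 19.4, 24.6, 16.3, 13.3 and 15.3 RPM on day 120 and at 4.73, 10.02, 12.7, 6.80 and 7.83 RPM on day 180. The gap between the ages was narrow, between 13.3 RPM in day 120 replicate 4 and 12.7 RPM in day 180 replicate 3. The change was -1.03 (SE 0.53, 95% interval -2.12 to 0.06; limma unadjusted p = 0.0638, adjusted p = 0.997). Its level on day 1 had been 16.3 ± 7.30 RPM and on day 60 12.6 ± 9.16 RPM, so day 180 did not lie outside earlier ages. miR-106a shares near-identical sequence with miR-17, miR-20a and miR-20b, and the split of reads between them is uncertain.

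In the RefSeq annotation of the goat genome ARS1.2, used only for names and neighbours, mir-363 and mir-106a lie in 1 cluster of 5 miRNA genes, the mir-106a-363 paralog of mir-17-92. Of the 4 mature miRNAs of this cluster that were tested, 4 had a change below 0, with a median of -0.70, and 3 after median-of-ratios scaling. miR-20b, also of this cluster, was at 15.8, 16.9, 13.2, 12.2 and 10.2 RPM on day 120 and at 5.74, 11.2, 12.7, 7.16 and 5.72 RPM on day 180. Its ages overlapped in the 2 highest day 180 libraries, and its change was -0.67 (95% interval -1.80 to 0.46). miR-363-5p, the opposite arm of miR-363-3p, had a change of -0.02. The cluster was looked up after the values of miR-363-3p and miR-106a-5p were seen, so its counts describe and do not test it.

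Prediction 82 was at 85.2, 98.9, 80.6, 81.2 and 81.3 RPM on day 120 and at 34.6, 72.5, 38.4, 57.7 and 75.6 RPM on day 180. The day 180 libraries spread over a wide range, and the highest of them, replicate 5 at 75.6 RPM, stood just below the lowest day 120 library. The mean had been 25.9 ± 11.6 RPM on day 1 and 69.9 ± 25.5 RPM on day 60, against 85.5 ± 7.71 RPM at day 120 and 55.7 ± 18.9 RPM at day 180 (SD, n = 5 each). The change from day 120 was -0.67 (SE 0.43; limma adjusted p = 0.997).

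**Figure D2:**
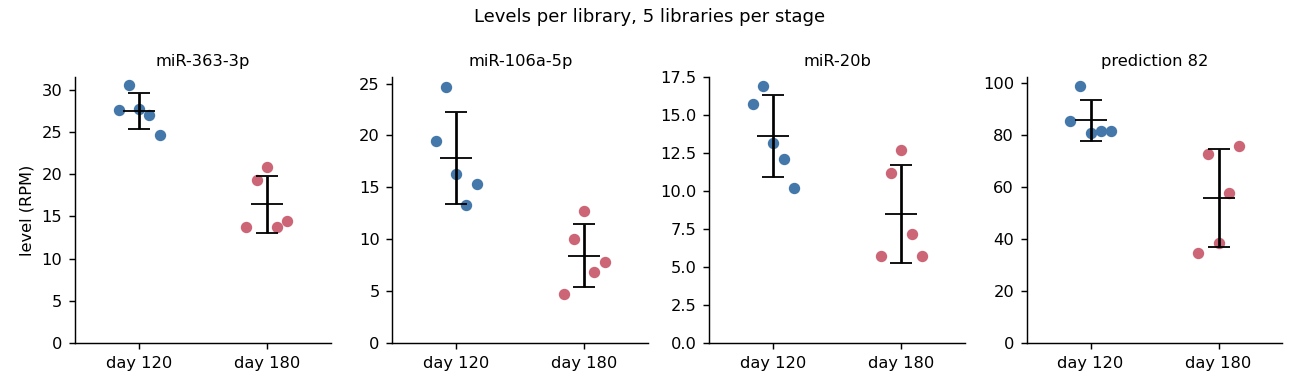
Levels in RPM of the 3 miRNAs whose day 120 and day 180 libraries do not overlap, and of miR-20b, a neighbour of mir-106a in the cluster, per library on day 120 (blue) and day 180 (red), with mean and SD. The day 180 libraries of miR-363-3p (13.7 to 20.9 RPM) sit below the day 120 libraries (24.7 to 30.6 RPM), while those of miR-20b overlap.

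Of the 3 miRNAs at an unadjusted p under 0.05, all had means below 10 RPM at both ages. Prediction 202 was at 1.83, 5.41, 11.4, 0 and 0 RPM on day 120 and at 4.88, 19.6, 11.5, 3.40 and 8.20 RPM on day 180. It was at 0 reads in replicates 4 and 5 of day 120 and present in all 5 day 180 libraries, but the ages overlapped, and the change was 1.62 (95% interval 0.15 to 3.08; limma adjusted p = 0.997). miR-496-3p was at 1.83, 8.29, 4.79, 1.44 and 2.74 RPM on day 120 and at 0.143, 2.15, 1.06, 1.21 and 1.24 RPM on day 180, a change of -1.05. miR-1185-5p was at 2.69, 5.05, 1.65, 0.800 and 1.50 RPM on day 120 and at 0.143, 0.716, 0.354, 1.34 and 1.12 RPM on day 180, a change of -0.87. Both are encoded in the imprinted DLK1-DIO3 region, whose miRNAs come from the maternal allele and are abundant in brain. Several of these day 180 values lie below the floor of 3 reads.

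Among known miRNAs at 10 RPM or more at either age, the 10 highest changes ran from 0.34 to 1.26 and the 10 lowest from -1.09 to -0.97. None passed the test, and of these 20 only miR-106a-5p had ages that did not overlap. The highest was miR-134, a miRNA of the DLK1-DIO3 region that limits the size of dendritic spines, and its values are described with the single libraries. The next were miR-532-5p and miR-148a-3p (0.52 each), miR-92a-3p and miR-338-3p (0.49 each), miR-671-3p and miR-106b-3p (0.41 each), miR-424-3p (0.39), and miR-195-3p and let-7i-5p (0.34 each). miR-532-5p was at 1512, 1997, 3177, 3241 and 3837 RPM on day 120 and at 4340, 3284, 3686, 2419 and 5788 RPM on day 180. Only replicates 1 and 5 of day 180 exceeded the highest day 120 library, and the 95% interval was -0.22 to 1.27. Single libraries moved several of these changes. That of miR-338-3p was 0.16 without day 120 replicate 1 and 0.97 without day 180 replicate 4, and that of miR-195-3p was 0.069 without day 180 replicate 1. The higher mean of miR-92a-3p on day 180 turned to a change of -0.065 without day 120 replicate 1, where it was at 612 RPM against 2976 to 6316 RPM in the other day 120 libraries. That of miR-424-3p turned to -0.024 without day 120 replicate 1 and to -0.12 without day 180 replicate 3.

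The lowest changes were those of miR-146a (-1.09), which dampens inflammatory signalling, of neuronal miR-137 (-1.06) and of miR-206 (-1.04), known from skeletal muscle. miR-128-3p, which restrains neuronal excitability, followed (-1.04). miR-128-3p was at 47611, 34432, 15638, 11493 and 11322 RPM on day 120 and at 8052, 21302, 12831, 7576 and 5497 RPM on day 180. The difference in means, 24099 ± 16228 against 11052 ± 6328 RPM (SD, n = 5), came largely from replicates 1 and 2 of day 120, and the other 3 day 120 libraries lay within the day 180 range. The 95% interval of the change was -2.09 to 0.01 (limma adjusted p = 0.997). The others were miR-106a-5p, miR-146b-5p (-1.03), miR-455-5p (-1.005), miR-150 of lymphocytes (-0.98), miR-200b (-0.97) and the erythroid miR-451-5p (-0.97).

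Single libraries also moved the lowest changes by more than 1.5 times. miR-137 was at 167, 110, 29.2, 39.8 and 30.5 RPM on day 120 and at 4.16, 83.3, 13.8, 63.1 and 43.1 RPM on day 180. Its change was -0.45 without day 180 replicate 1, where it was lowest, and -0.69 without day 120 replicate 1, where it was highest. miR-146b-5p was at 7208, 1659, 845, 1367 and 1909 RPM on day 120 and at 775, 2881, 1293, 240 and 1073 RPM on day 180. Its change was -0.55 without day 120 replicate 1 and -0.54 without day 180 replicate 4. miR-150 was at 84.5, 431.8, 349, 375.2 and 200 RPM on day 120 and at 269, 210, 19.5, 151 and 182.2 RPM on day 180. Its change was -0.33 without day 180 replicate 3, that of miR-200b was -0.44 without day 120 replicate 5, and that of miR-451-5p was -0.64 without day 120 replicate 2.

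miR-146a was at 84.2, 37.7, 31.1, 25.1 and 26.6 RPM on day 120 and at 5.59, 44.4, 24.6, 8.86 and 22.1 RPM on day 180. Replicate 1 of day 120 was high and replicates 1 and 4 of day 180 were low, while replicate 2 of day 180 exceeded 4 of the day 120 libraries. miR-455-5p was at 91.3, 54.2, 52.2, 31.5 and 58.6 RPM on day 120 and at 43.7, 25.8, 18.6, 20.6 and 30.8 RPM on day 180. Its ages overlapped in 1 library of each, replicate 4 of day 120 and replicate 1 of day 180. miR-451-5p was at 540, 1325, 536, 445 and 232 RPM on day 120 and at 346, 265, 262, 180 and 316 RPM on day 180. Replicate 5 of day 120 lay within the day 180 range and the other day 120 libraries above it.

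**Figure D3:**
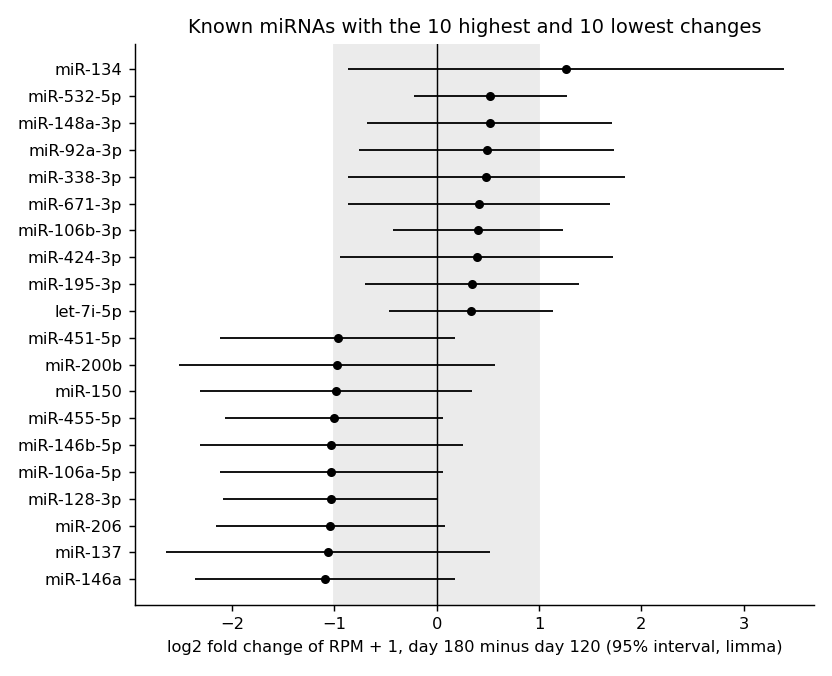
Log2 fold change of RPM + 1, day 180 minus day 120, with its 95% interval from limma, for the known miRNAs with the 10 highest and 10 lowest changes, and a grey band for changes within 2-fold. All 20 intervals cross 0; miR-128-3p, with -2.09 to 0.01, reaches it by the smallest margin.

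The lists of related miRNAs are given by their counts and medians beside the same over all tested miRNAs, which were 274 of 414 below 0 and a median of -0.15. No member of any list was called (0% of all tested miRNAs). Of miRNAs tied to puberty and GnRH, 13 of 16 tested had a change below 0, with a median of -0.50, and 12 after median-of-ratios scaling. The 3 above 0 included miR-155-5p, which had the highest change of the list, 0.26. It was at 130.6 ± 43.8 RPM on day 120 and 156.9 ± 64.4 RPM on day 180 (SD, n = 5). This list holds the miR-200 family, of which 4 of 4 tested lay below 0 with a median of -0.69, and 4 after that scaling. miR-200b, which in mice acts upstream of GnRH through the repressor Zeb1, was at 41.6, 111, 176, 118 and 639 RPM on day 120 and at 62.5, 63.0, 71.5, 117 and 63.1 RPM on day 180. The day 180 libraries lay within the day 120 range, and replicate 5 of day 120 was above all others. miR-200b also marks epithelium. In the same library miR-182 and miR-183, of another cluster, were highest as well, at 654.5 and 513 RPM, and the part of its cell content in these values was not tested.

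miR-7-5p led the puberty list and the pituitary and epithelium list in abundance. It was at 74610, 63668, 21006, 41380 and 31685 RPM on day 120 and at 21704, 42641, 9515, 304600 and 105125 RPM on day 180. Both the highest and the lowest of these values were on day 180, and replicate 4 of that age gave 30.5% of its miRNA reads to this 1 miRNA. The change was 0.22 (95% interval -1.26 to 1.71), and it was -0.44 without day 180 replicate 4, -0.054 without day 180 replicate 5 and -0.028 without day 120 replicate 3. Of the pituitary and epithelium list, 5 of 6 tested miRNAs had a change below 0 (5 after median-of-ratios scaling), and its summed level ran from 21277 to 74714 RPM on day 120 and from 9646 to 304805 RPM on day 180, nearly all of it miR-7-5p. Of 7 tested miRNAs tied to feeding and metabolism, 5 lay below 0 (4 after median-of-ratios scaling), with a median of -0.25. Their most abundant member, miR-103-3p, which acts in insulin signalling, was at 10292 ± 2123 and 7512 ± 2651 RPM (SD, n = 5), a change of -0.51.

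Neuronal miRNAs had 9 of 10 members below 0, with a median of -0.64, and 9 after median-of-ratios scaling. miR-124a, the classical neuronal miRNA, was at 1742, 2004, 976, 607 and 618 RPM on day 120 and at 290, 1392, 685, 504 and 728 RPM on day 180. Replicates 1 and 2 of day 120 and replicate 2 of day 180 were high, as for miR-128-3p, and the ages overlapped. miR-129-5p, also neuronal, did not share the direction, with 10161 ± 7026 and 10431 ± 6676 RPM (SD, n = 5) and a change of 0.04. The oligodendrocyte list had 0 of 3 below 0 before and after median-of-ratios scaling, and a median of 0.21. Its most abundant member, miR-338-5p, which promotes myelination, was at 445, 1716, 4556, 3282 and 2751 RPM on day 120 and at 2255, 3424, 6760, 600 and 2083 RPM on day 180. It was lowest in day 120 replicate 1 and day 180 replicate 4, and the libraries within an age differed more than the ages did. The cell makeup of the dissected pieces was not measured, so its part in the neuronal and oligodendrocyte values was not tested.

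The imprinted DLK1-DIO3 cluster was the largest list, with 43 of 53 tested miRNAs below 0 and a median of -0.24, and with 32 below 0 after median-of-ratios scaling. Some of its abundant members had estimates near 0, with wide 95% intervals. miR-127-3p was at 8594 ± 2358 and 9141 ± 3638 RPM, a change of 0.05 (-0.76 to 0.87). miR-323a-3p was at 2443 ± 898 and 2552 ± 1123 RPM, a change of 0.03 (-0.97 to 1.03). miR-379-5p was at 1895 ± 439 and 2388 ± 1346 RPM (SD, n = 5 each), a change of 0.08 (-0.83 to 0.99). The estimate for miR-409-3p, also abundant, was higher, at 0.31 (-0.86 to 1.49). The summed level of all 59 measured members of the cluster, tested or not, ran from 17315 to 35074 RPM on day 120 and from 17241 to 39086 RPM on day 180. This sum was highest in day 120 replicate 2 and day 180 replicate 4, while miR-127-3p was highest in day 120 replicate 3 and day 180 replicate 5.

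The let-7 family had 12 of 17 tested members below 0 and 6 after median-of-ratios scaling, with a median of -0.04. let-7a-5p was at 15390 to 61778 RPM on day 120 and 20736 to 98525 RPM on day 180, with both the low end of day 120 in replicate 1 and the high end of day 180 in replicate 3. The miR-30 family had 8 of 11 below 0 (median -0.35) and the miR-29 family 5 of 5 (median -0.33), and after median-of-ratios scaling 6 and 4 of them were. miR-29a-3p, which represses collagens and DNA methyltransferases, was at 1653 ± 482 and 1380 ± 584 RPM (SD, n = 5). The miR-17-92 cluster and its paralogs had 12 of 18 below 0 (median -0.27; 11 after scaling), with miR-92a-3p on the high side and miR-106a-5p and miR-363-3p on the low side. The miR-183 cluster, known from sensory organs and the pineal gland, had 3 of 3 below 0, and without replicate 5 of day 120 the level of miR-182 on day 120 ran from 10.5 to 87.1 RPM, close to the 11.5 to 83.2 RPM of day 180.

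miRNAs on the lists of other cell types were detected at both ages, which does not show that those cells were in the dissected tissue. The astrocyte list had 16 of 21 below 0 (8 after median-of-ratios scaling) with a median of -0.14, and the stem and progenitor list 12 of 18 (11) with -0.29. The microglia and immune list had 8 of 10 below 0 (6 after scaling) with a median of -0.40, and its most abundant member, miR-21-5p, was at 9485 ± 1623 and 8325 ± 2166 RPM (SD, n = 5). The vessel and smooth muscle list had 11 of 11 below 0 as deposited and 10 after median-of-ratios scaling, with a median of -0.47. Its most abundant member, miR-143-3p, was at 59107 ± 40755 and 63434 ± 61428 RPM (SD, n = 5), a change of -0.002. The list's summed level was 73285 ± 41820 and 75201 ± 60476 RPM (SD, n = 5), so its reads did not fall as a whole. The endothelial miR-126-3p of this list was at 8623 ± 1528 and 7071 ± 1278 RPM (SD, n = 5), a change of -0.29 with overlapping ages. The muscle list had 6 of 6 below 0 (median -0.69) and the erythroid list 3 of 3 (median -0.47), in the same numbers after scaling, with summed levels of 236 to 1338 RPM on day 120 and 181.5 to 349 RPM on day 180 for the latter. The multiciliated and choroid plexus list had 3 of 7 below 0, the liver list 2 of 3 and the HOX list of posterior tissue 2 of 2, and after scaling 2, 1 and 2 were.

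**Figure D4:**
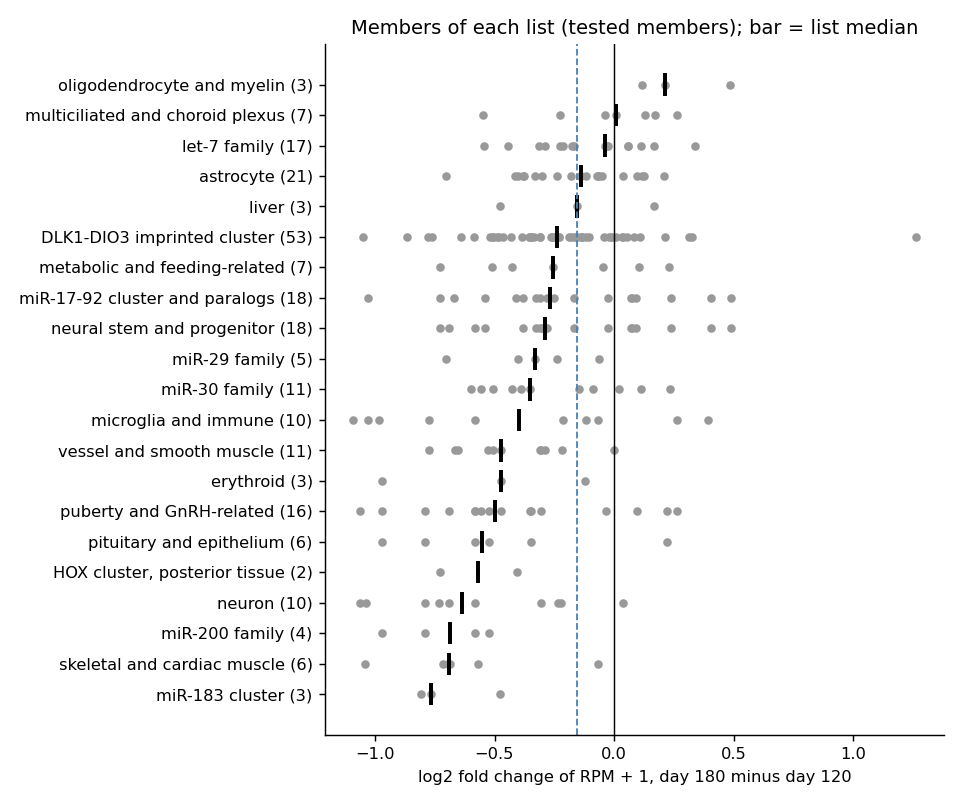
For each list of miRNAs, points are the changes of its tested members (log2 fold change of RPM + 1, day 180 minus day 120) and the bar is the list's median, with a dashed line at the median of all 414 tested miRNAs, -0.15. The neuron list centres on -0.64 and the oligodendrocyte list on 0.21, and the members of most lists lie on both sides of 0.

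In 31 clusters of neighbouring miRNA genes with 3 or more tested members, defined by gaps of at most 10000 bases in the RefSeq annotation, 14 had every member below 0 and 0 had every member above as deposited. After median-of-ratios scaling 7 had every member below 0 and 5 had no member below 0. The lowest medians were those of the clusters of mir-429 and mir-200b (-0.79), of mir-183 and mir-182 (-0.77) and of mir-363 and mir-106a (-0.70). The highest was that of mir-188 and mir-532 (0.35). Members of a cluster can share a primary transcript and are not independent.

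The ratio of the 5p to the 3p arm of a hairpin was taken as log2(RPM + 1) of the 5p arm minus that of the 3p arm, so it depends little on the scaling of a library where both arms are abundant, and does depend on it and on the pseudocount where an arm is near 1 RPM. Of 120 hairpins with both arms tested, 0 were called (limma, Benjamini-Hochberg, smallest adjusted p 0.999) and 0 were at an unadjusted p under 0.05. The latter count was 1 with a pseudocount of 0.1. With only the day 120 and day 180 libraries in the fit it was 5, the most of all settings tried, and again 0 were called. The 3 highest changes of the log2 ratio were those of miR-1307 (0.86, 95% interval -0.03 to 1.75), miR-103 (0.74) and miR-363 (0.71), each with a 5p arm at a low level. The 5p means on day 120 and day 180 were 1.81 and 3.41 RPM for miR-1307, 0.881 and 1.28 RPM for miR-103 and 0.799 and 0.877 RPM for miR-363. The 3 lowest were those of miR-409 (-0.96, -2.10 to 0.18), miR-708 (-0.86) and miR-106b (-0.69). For miR-1307 the log2 ratio was -6.41, -6.17, -6.99, -6.05 and -6.07 on day 120 and -5.98, -5.18, -5.08, -5.96 and -5.19 on day 180. The ages came close, at -6.05 in day 120 replicate 4 and at -5.98 and -5.96 in day 180 replicates 1 and 4. With 5p means of 1.81 and 3.41 RPM, the pseudocount enters this ratio. This ratio was picked as the highest of 120 (limma unadjusted p = 0.0567, adjusted p = 0.999). How many of the 120 ratios had ages that did not overlap was not counted. Sums over miRNAs of the same number and arm also gave 0 calls in 303 sums, of which 44 held 2 or more members, with a smallest limma adjusted p of 0.997. These sums keep miR-17, miR-20 and miR-106a apart.

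The libraries of an age differed more from each other in some miRNAs than the ages did. The median absolute distance of a library from its age's other libraries was 0.484 ± 0.153 on day 120 and 0.557 ± 0.103 on day 180 on the log2 scale (SD, n = 5). A two-sided exact permutation test of these distances gave p = 0.381. The distances within an age depend on each other and were not recomputed for each split, so this p is only a guide. Over miRNAs, the SD was larger on day 180 for 279 of 414, with medians of 0.568 and 0.668, as a description. The number of miRNAs at 1 RPM or more was 389 ± 12.3 and 387 ± 15.1 per library (exact permutation p = 0.817), and the 10 most abundant miRNAs took 67.1 ± 4.04% and 69.1 ± 4.55% of the reads (exact permutation p = 0.452). The smallest p that 5 against 5 libraries allow is 0.00794, and all 4 values per library, depth included, had a Benjamini-Hochberg adjusted exact permutation p of 0.817.

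Several miRNAs set single libraries apart, and they were chosen for description after their values were seen. miR-143-3p of smooth muscle was at 113706, 24921, 37691, 27711 and 91506 RPM on day 120 and at 172472, 31909, 42766, 25863 and 44158 RPM on day 180. Replicates 1 and 5 of day 120 and replicate 1 of day 180 were high. miR-34c-5p, which acts in multiciliated cells such as ependyma, was at 104, 1662, 117, 135 and 82.2 RPM on day 120 and at 32.8, 284, 101, 1280 and 83.4 RPM on day 180. Replicate 2 of day 120 and replicate 4 of day 180 were high, and miR-34b-3p, its neighbour, was highest in the same libraries, at 842 and 693 RPM. The high values of miR-34c-5p and miR-34b-3p occurred in 1 library of each age, so they widened the spread and did not separate the ages.

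miR-134 was at 29.1, 0.841, 52.8, 64.3 and 0.748 RPM on day 120 and at 50.2, 47.5, 0.177, 109 and 83.4 RPM on day 180. It was almost missing from replicates 2 and 5 of day 120 and replicate 3 of day 180, with 7, 6 and 1 reads, and at 238 to 895 reads in the other 7 libraries. Neighbours in the DLK1-DIO3 cluster differed in those libraries: miR-323a-3p was at 3940, 1953 and 2304 RPM in them, within its range of 1499 to 4383 RPM in the other 7. miR-379-5p was at 2155, 1948 and 529 RPM, the last its lowest of the 10 libraries, where the sum of the cluster was lowest too. Prediction 997 was low in the same 3 libraries, at 1.44, 0.125 and 0 RPM, and at 14.7 to 51.8 RPM in the others. In the day 1 and day 60 libraries miR-134 ran from 29.8 to 126.8 RPM. With 2 such libraries on day 120 and 1 on day 180, its change of 1.26 had a standard error of 1.03 and a 95% interval of -0.86 to 3.39. It was 0.56 without day 120 replicate 2, 0.55 without day 120 replicate 5 and 2.44 without day 180 replicate 3.

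**Figure D5:**
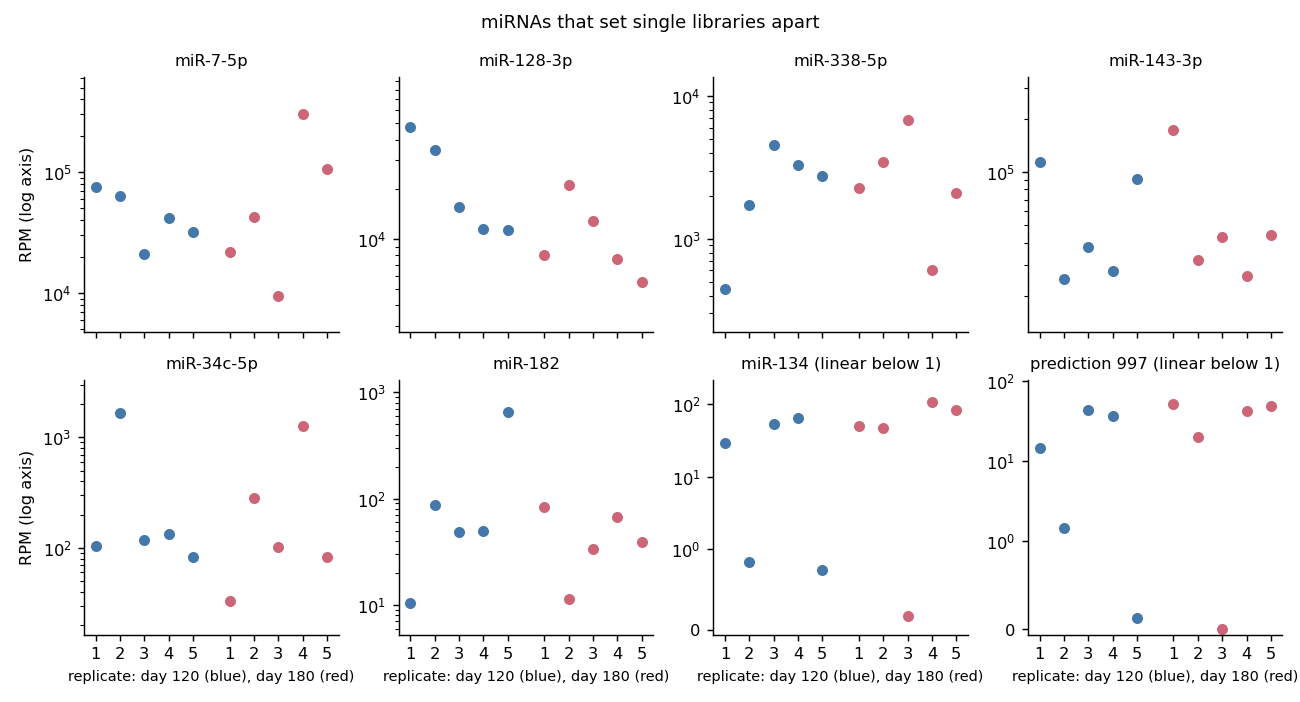
Levels in RPM on logarithmic axes of 8 miRNAs that set single libraries apart, with day 120 replicates 1 to 5 in blue and day 180 replicates 1 to 5 in red. The axes of miR-134 and prediction 997 are linear below 1 RPM, where both fall in day 120 replicates 2 and 5 or day 180 replicate 3, apart from 1.44 RPM for prediction 997 in day 120 replicate 2.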

How the data were processed

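Small RNA of goat hypothalamus was sequenced from Trizol-extracted RNA with a NEBNext kit, per the labels' protocols. Bowtie is named in the submitters' processing notes. For its version, the genome build, the miRNA catalogue and the read counter, the sources used here give nothing. RPM values, headed as TPM, make up the 1 table deposited; low values were whole multiples of 1 read, and 100% of values below 1000 reads came out whole within 0.1 read.

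miRNAs at 1 RPM or more in at least 5 of 20 libraries were tested with limma 3.58.1 (R 4.3.3; two-sided moderated test, variance trend on the mean). Values were log2(RPM + 1), and the pseudocount understates changes of low miRNAs. All 20 libraries entered 1 fit with 4 age means. edgeR 4.0.16 and DESeq2 1.42.0 were run on the recovered reads. Values per library were compared by exact permutation. The tests were tried on simulated data. Between libraries of day 120 and between those of day 180, chi-square divided by its degrees of freedom was at least 367, so none repeated another of its age. Other pairs of libraries were not compared in this way. p-values measure the spread between these libraries.

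The text names the 10 highest and 10 lowest changes among known miRNAs at 10 RPM or more. Also named are those at an unadjusted p under 0.05, the 10 most abundant and abundant members of most lists. The 3 highest and 3 lowest arm ratios are named too, and other miRNAs were chosen after their values were seen. The members and lists were chosen with earlier results of these data known. Of 407 known names, 403 matched the RefSeq table of ARS1.2. Alternatives were other pseudocounts, filters, scalings and tests, a block on the replicate number, and single libraries left out. Sums over shared seeds were not run and no miRNA sequence is printed, because mature sequences were not used here.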

Additional observations from a re-analysis of the deposited data

Results flagged for a closer look

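Within each age, 14 of 178 groups of 5 libraries (85 miRNAs and 4 values per library, at 2 ages) held 1 library far from the other 4, by a gap of more than 0.71 of the group's range, on log2(RPM + 1) for miRNAs. Chance would give about 1 in 20 such groups for miRNAs chosen without regard to their values. Some of these were named for a high or low change, such as miR-134, and others were chosen after their values were seen. That rate therefore does not apply to the 14. Of them 4 were in day 180 replicate 4 and 3 in day 120 replicate 1. On day 120, replicate 1 was highest in miR-9-5p (237562 RPM) and lowest in miR-25-3p (1235 RPM) and miR-204-5p (1380 RPM). Replicate 2 of day 120 was highest in miR-34c-5p (1662 RPM) and prediction 82 (98.9 RPM). On day 180, replicate 4 was highest in miR-200b (117 RPM) and miR-409-3p (3933 RPM) and lowest in miR-106b-3p (509 RPM) and miR-192-5p (704 RPM). Replicate 3 of day 180 was lowest in miR-134 (0.177 RPM) and miR-150 (19.5 RPM), and replicate 1 was highest in miR-143-3p (172472 RPM). Replicate 5 of day 180 was highest in miR-30a-5p (8452 RPM) and lowest in miR-122 of liver, at 10.9 RPM, or 88 reads, against 123 to 142.1 RPM in the other 4 libraries.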

How the results depend on the processing

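limma, edgeR and DESeq2 called 0 miRNAs under all 34 other settings and limma called 0 arm ratios under 25, with 0 to 12 miRNAs at an unadjusted p under 0.05. Of 1084 recomputed changes of 32 named miRNAs, 1064 kept their direction and 20 did not; none was called and the cause was not tested. Quantile scaling gave -0.051 for let-7f-5p, -0.051 for miR-7-5p and -0.075 for miR-26a-5p. For let-7g-5p, median-of-ratios scaling gave 0.014 and DESeq2 0.022. Leaving out both day 180 libraries highest in miR-143-3p or miR-7-5p, chosen after seeing the data, gave -0.27 for miR-7-5p and 0.0054 for let-7g-5p. With 1 library left out, the change ran from -0.065 to 0.83 for miR-92a-3p, from -0.12 to 0.78 for miR-424-3p, from -0.020 to 0.14 for let-7f-5p, from -0.44 to 0.81 for miR-7-5p, from -0.057 to 0.15 for miR-26a-5p and from -0.12 to 0.28 for miR-100-5p. Libraries whose omission turned a sign were day 180 replicate 1 (let-7f-5p, miR-100-5p), replicate 3 (miR-424-3p, miR-26a-5p), replicate 4 (miR-7-5p) and replicate 5 (miR-7-5p, miR-26a-5p, miR-100-5p), and day 120 replicate 1 (miR-92a-3p, miR-424-3p, miR-100-5p), replicate 3 (miR-7-5p) and replicate 5 (miR-26a-5p). With 1 library left out, the difference in spread ran from -0.043 to 0.17 (below 0 without day 120 replicate 3 or 4), that in miRNAs at 1 RPM or more from -7.75 to 2.75 (above 0 without day 120 replicate 2 or 3 or day 180 replicate 1) and that in depth from -623699 to 67786 reads (above 0 without day 180 replicate 3). For the spread, the distances of the reduced age were then taken from fewer libraries than those of the other age. Same-numbered libraries did not deviate together (1 of 5 correlations over 0.1), so the numbers were not taken as pairs; with the replicate number as a block 0 miRNAs were called and 7 were at an unadjusted p under 0.05.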
